A study of Mus musculus with 6 samples.

Results

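The genes described here encode the antioxidant and iron-handling apparatus of macrophages, 36 genes in all, taken by name from a table of 10551 genes. They are the transcription factor gene Nfe2l2 (NRF2) and its regulators, NRF2 target enzymes, the enzymes of glutathione and thioredoxin metabolism, peroxiredoxins, catalase and superoxide dismutase 1, the genes of iron storage, uptake and export, and subunits of the phagocyte NADPH oxidase. All 36 were in the table, and all 36 passed the filter on low counts. They were measured by RNA sequencing in bone marrow-derived macrophages, which are cells grown from marrow progenitors, of C57BL/6J mice. Of the 6 libraries, 3 came from Dhps knockout cells (labelled Dhps_delta_Myel), and 3 from control cells. The enzyme encoded by Dhps, deoxyhypusine synthase, carries out the first step of hypusine formation on eIF5A, a translation factor, and the study's title links it to the pro-inflammatory phenotype. The Cre driver, the deleted part of Dhps, the age of the mice, any stimulus, and whether libraries came from separate animals or cultures are not stated in the sources used here, so that p-values cover no more than the spread of these 6 samples, part or all of which may be technical.

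NRF2 is held in the cytoplasm by KEAP1, which hands it over for degradation. Oxidants and electrophiles modify KEAP1, and NRF2 then enters the nucleus, pairs with small MAF proteins and binds the antioxidant response element of genes for glutathione synthesis, thioredoxin reduction, haem breakdown and ferritin. Macrophages use this programme to withstand the superoxide made by their own NADPH oxidase, and they recycle iron from engulfed red cells through haem oxygenase, ferritin and the iron exporter ferroportin.

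NRF2 is known to act on its targets through the antioxidant response element. The core of the antioxidant response element, TGACNNNGC, was searched on both strands in the RefSeq promoter windows of build GRCm38.p6, which run from 250 bases before to 50 bases after a gene's start. Windows were at hand for 30 of the 36 genes, and 7 of those 30 (23.3%) held a match, against 17.3% of the 8086 genes of the count table with a window. A match is a description of the letters and no sign of binding. The 4 matches below, each read on the strand of the core, come from genes whose levels are given further on, with the core in capitals.
Gclm (chr3:122245413-122245441, minus strand): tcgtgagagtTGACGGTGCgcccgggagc
Srxn1 (chr2:152105542-152105570, minus strand): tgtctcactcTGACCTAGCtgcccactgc
Txnrd1 (chr10:82859104-82859132, minus strand): cgtgtcagaaTGACAAAGCaaaaatccag
Prdx1 (chr4:116685456-116685484, minus strand): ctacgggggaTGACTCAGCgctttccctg
The remaining matches lay in the windows of Nfe2l2, Mgst1 and Sod1.

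The iron-handling genes share another element, the iron-responsive element, an RNA hairpin bound by iron regulatory proteins when iron is scarce. Binding near the start of the ferritin and ferroportin mRNAs is known to block their translation, and binding in the 3′ untranslated region of the transferrin receptor mRNA is known to stabilise it. The hairpin was searched on the sense strand of annotated mouse transcripts (GENCODE M21, GRCm38) as a C, 5 bases, the loop CAGTGN and 5 bases that pair with the first 5, G-T pairs allowed. It was found in the 5′ untranslated region of 31 of 22500 coding genes (0.138%), among them Fth1, Ftl1 and Slc40a1, and in the 3′ untranslated region of 144 genes (0.64%), among them Tfrc, which held 4. They are shown with the loop in capitals, the first of the 4 for Tfrc, because the comparison below turns on the ferritin genes.
Fth1 (chr19:9982733-9982759, plus strand): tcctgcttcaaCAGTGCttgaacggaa
Ftl1 (chr7:45459780-45459806, minus strand): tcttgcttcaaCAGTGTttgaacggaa
Slc40a1 (chr1:45925466-45925492, minus strand): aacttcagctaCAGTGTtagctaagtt
Tfrc (chr16:32631220-32631246, plus strand): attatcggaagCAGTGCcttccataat

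The libraries held between 11648710 and 16224818 counts. Levels are given as CPM, counts per 1000000 after TMM scaling between libraries. The targeted gene Dhps lay at 13.2, 13.6 and 18.3 CPM in the knockout libraries, against 24.1, 20.9 and 23.4 CPM in the control libraries, so that the groups did not overlap. Its log2 fold change, -0.59, did not pass the threshold used below (adjusted p = 0.214, quasi-likelihood test of edgeR). All 12 macrophage markers searched were in the table, with Adgre1, the F4/80 gene, at 1338 ± 99.3 CPM in knockout and 1512 ± 54.4 CPM in control libraries, and Csf1r at 1003 ± 92.8 CPM in knockout and 1093 ± 81.5 CPM in control libraries (SD, n = 3 each). Lyz2, the lysozyme gene of myeloid cells, was called lower (log2 fold change -1.04, adjusted p = 7.2e-05), which sets the summed level of those 12 markers at 17473 to 19740 CPM in knockout and 27139 to 29389 CPM in control libraries. Of 18 markers of neutrophils and their precursors 13 were in the table, without Ly6g and Cxcr2. Of these 13, 5 were called higher, against 0.104% of all genes called in either direction. The 13 summed to 1502 to 1755 CPM in knockout and 977 to 1248 CPM in control libraries. The largest part of that sum was Mmp9, at 659 ± 56.6 CPM in knockout and 531 ± 112 CPM in control libraries. It was not among the 5 called, and its groups overlapped. Of the 8 lists for other cell types the stromal list alone held called genes, 2 of 7, both higher, against 0.104% of all genes. These 2, Col1a2 and Sparc, lay under 1 CPM in every control library. Every gene of the table has at least 3 libraries over 1 CPM, so they are in it through the knockout libraries alone. Their share is thus not comparable with that of all genes. The summed level of the stromal list was 585 to 738 CPM in knockout and 637 to 798 CPM in control libraries. Most of that sum was Fn1, at 654 ± 75.4 CPM in knockout and 721 ± 82.0 CPM in control libraries, so it tells little of the called genes. Higher at an unadjusted p under 0.05 were 5 of 8 monocyte, 4 of 7 platelet and 2 of 5 mast cell markers, against 3.84% of all genes. So were 4 of 7 stromal, 1 of 2 B cell and 1 of 3 dendritic cell markers, and 1 platelet marker was lower. Both of those mast cell markers, Mcpt8 and Prss34, had under 1 CPM in every control library. The same held for Tubb1 and Gp9, which belong to the 4 higher platelet markers. Like Col1a2 and Sparc, these genes could reach 3 libraries over 1 CPM only by their knockout values. The filter thus set part of the mast cell, platelet and stromal counts, which cannot be weighed against 3.84%. Of 18 erythroid markers 2 were in the table, with a sum of 18.8 to 24.0 CPM in knockout and 17.2 to 23.5 CPM in control libraries. The part of these cells in the values below was not tested, and in bulk libraries fewer cells of a type and less RNA per cell cannot be told apart.

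None of the 36 genes passed the threshold, which was an adjusted p under 0.05 in edgeR with the adjustment made across the 10551 genes, and DESeq2 called 0 of them as well. The share of genes that passed was 0.104% in edgeR and 0.209% in DESeq2 when every gene was counted. At an unadjusted p under 0.05 there were 2 of the 36, Fth1 and Hmox1, against 6.48% of all genes, and both were on the higher side, which held 3.84% of all genes. The groups did not overlap for 2 genes, against 11.2% of all genes, with Fth1 on the higher side (5.73% of all genes) and Sod1 on the lower side (5.45% of all genes). Of the 36 log2 fold changes 16 were positive and 20 negative, with a median of -0.0085 beside a median of -0.0044 over all genes tested. The 95% interval of the log2 fold change lay within a 1.5-fold change either way for 34 of the 36 genes, against 71.9% of all genes, many of which are less abundant. The other two were Nqo1 and Txnrd2, the least abundant of the 36 in both groups, and their intervals lay within a 2-fold change.

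**Figure D1:**
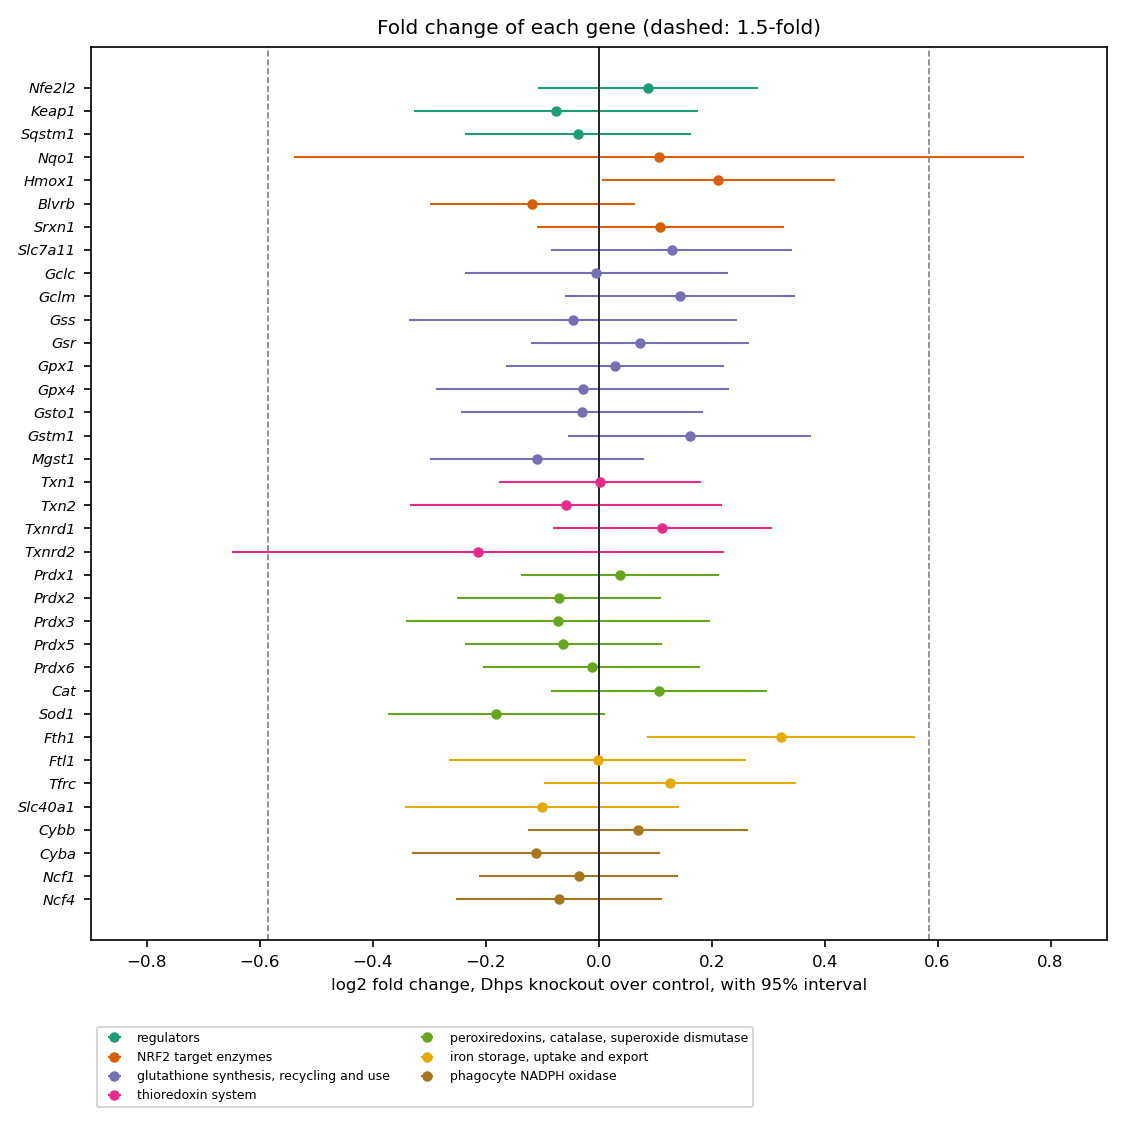
Log2 fold change of each of the 36 genes (x axis, Dhps knockout over control) with its 95% interval from edgeR's quasi-likelihood fit, coloured by role; dashed lines mark a 1.5-fold change. Intervals of 34 genes stay between the dashed lines, Nqo1 and Txnrd2 have the widest, and those of Fth1 and Hmox1 lie above 0 before adjustment.

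The regulators of the programme were measured at close levels in both groups. Nfe2l2, which encodes NRF2, had 260, 266 and 265 CPM in knockout libraries, against 225, 241 and 279 CPM in control libraries, which gave a 95% interval of -0.11 to 0.28 around a log2 fold change of 0.09 (adjusted p = 0.937). Knockout values were within a few CPM of each other and lay inside the range of the control libraries. Keap1, which encodes the adaptor that marks NRF2 for degradation, had 38.4, 50.8 and 54.9 CPM in knockout libraries, against 51.8, 52.1 and 47.8 CPM in control libraries (log2 fold change -0.08, adjusted p = 0.968). Its lowest value was that of knockout library 1. Sqstm1, which encodes the autophagy receptor p62 that competes for KEAP1, averaged 887 ± 91.1 CPM in knockout and 910.3 ± 66.3 CPM in control libraries (SD, n = 3 each, log2 fold change -0.04). Part of the deposited exons of Keap1, 510 bases, is also exonic in an annotated gene model on the opposite strand, and the use of strand in counting was not given.

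Of the 36 genes, 4 were grouped here as NRF2 target enzymes, Hmox1, Blvrb, Srxn1 and Nqo1, and none passed. Genes of thioredoxin reduction and ferritin, which NRF2 also binds, are given with their own groups below. Hmox1 encodes haem oxygenase 1, which opens the haem ring and frees its iron. It had 264, 228 and 204 CPM in knockout libraries, against 207, 195 and 198 CPM in control libraries, which gave a 95% interval of 0.0052 to 0.42 around a log2 fold change of 0.21 (adjusted p = 0.749). Knockout library 1 was the highest, and knockout library 3 lay inside the control range. Without knockout library 1 the log2 fold change was 0.11 (adjusted p = 0.910). Blvrb, biliverdin reductase B, which works downstream of haem breakdown, had 242.5, 228 and 259.9 CPM in knockout libraries, against 274, 255 and 264 CPM in control libraries (log2 fold change -0.12, adjusted p = 0.894). Srxn1, sulfiredoxin, which repairs over-oxidised peroxiredoxins, averaged 284 ± 41.2 CPM in knockout and 264 ± 19.5 CPM in control libraries (SD, n = 3 each, log2 fold change 0.11, adjusted p = 0.920). As with Hmox1, its highest value, 330.3 CPM, was that of knockout library 1. Nqo1, NAD(P)H quinone dehydrogenase and a common readout of NRF2, was close to the floor of the table with 2.06, 2.48 and 1.59 CPM in knockout and 1.86, 1.74 and 2.09 CPM in control libraries. Its interval, -0.54 to 0.75 on the log2 scale, was the widest of the 36.

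Glutathione is made from cystine taken up by the exchanger xCT, joined to glutamate by glutamate-cysteine ligase and completed by glutathione synthetase, and glutathione reductase returns its oxidised form. Of the 10 genes of this group none passed, none had an unadjusted p under 0.05 and DESeq2 called none. Slc7a11, which encodes xCT, had 770, 950.0 and 826 CPM in knockout libraries, against 724, 729 and 874 CPM in control libraries (adjusted p = 0.902, log2 fold change 0.13 ± 0.10 SE). The groups overlapped through control library 3. Gclm, the modifier subunit of glutamate-cysteine ligase, had 104, 106 and 93.5 CPM in knockout libraries, against 87.4, 86.7 and 101 CPM in control libraries (log2 fold change 0.14, adjusted p = 0.876). Control library 3 again fell among the knockout values. Part of the exonic sequence of Gclm is near-identical to other transcripts, Ppia among them, over up to 287 bases, so its counts are uncertain if such reads were shared. Gclc, the catalytic subunit, averaged 8.14 ± 0.711 in knockout and 8.17 ± 0.474 in control libraries as CPM per kilobase of exon (SD, n = 3 each, log2 fold change -0.0045). Gss, glutathione synthetase, was the least abundant of this group, at 11.3 ± 0.107 CPM in knockout and 11.7 ± 0.569 CPM in control libraries, and 159 bases of its exons are also exonic in Acss2 on the opposite strand. Gsr, glutathione reductase, averaged 137 ± 9.73 CPM in knockout and 131 ± 7.73 CPM in control libraries (log2 fold change 0.07, adjusted p = 0.946).

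The glutathione-using enzymes spanned a wide range of levels without a difference that passed. Gpx1, the main cytosolic glutathione peroxidase, averaged 1321 ± 67.2 CPM in knockout and 1295 ± 121 CPM in control libraries (log2 fold change 0.03, 95% interval -0.16 to 0.22). Gpx4, which reduces lipid hydroperoxides and is known as the guard against ferroptosis, had 379, 303 and 323 CPM in knockout libraries, against 373, 384 and 267 CPM in control libraries (log2 fold change -0.03, 95% interval -0.29 to 0.23). The control libraries themselves spread more widely than the knockout libraries for this gene. Both are selenoproteins, whose synthesis reads a stop codon as selenocysteine. Gstm1, a cytosolic glutathione transferase, averaged 77.2 ± 9.26 CPM in knockout and 69.0 ± 2.87 CPM in control libraries (log2 fold change 0.16, adjusted p = 0.862). Mgst1, a membrane-bound glutathione transferase, averaged 270.5 ± 23.9 CPM in knockout and 292 ± 13.9 CPM in control libraries (log2 fold change -0.11). Gsto1, an omega-class transferase, averaged 35.0 ± 1.84 CPM in knockout and 35.7 ± 2.42 CPM in control libraries. Near-identical annotated copies exist for Gpx4 and Gstm1, outside the count table, and could share reads with them.

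Thioredoxins pass electrons from NADPH, through thioredoxin reductases, to peroxiredoxins. The cytosolic pair was abundant, with Txn1 at 236 ± 14.9 CPM in knockout and 236 ± 5.94 CPM in control libraries (log2 fold change 0.0023, 95% interval -0.18 to 0.18) and its reductase Txnrd1 at 1266 ± 95.5 CPM in knockout and 1171 ± 93.3 CPM in control libraries (log2 fold change 0.11, adjusted p = 0.908). The mitochondrial pair was less abundant than the cytosolic pair, also per kilobase of exon. Txn2 averaged 18.7 ± 2.10 CPM in knockout and 19.4 ± 2.11 CPM in control libraries, and Txnrd2 had 6.12, 3.95 and 5.89 CPM in knockout libraries, against 6.50, 5.79 and 6.35 CPM in control libraries (adjusted p = 0.921, log2 fold change -0.21 ± 0.21 SE). Knockout library 2 alone lay far below the rest for Txnrd2.

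Among the enzymes that remove peroxide and superoxide, Prdx1 led. This cytosolic peroxiredoxin had 3703, 3527 and 3748 CPM in knockout libraries, against 3470, 3551 and 3674 CPM in control libraries (log2 fold change 0.04, 95% interval -0.14 to 0.21). The values of the groups interleaved. Of the 36 genes, the other peroxiredoxin genes had log2 fold changes from -0.07 for Prdx3, the mitochondrial form, to -0.01 for Prdx6, which acts on phospholipid hydroperoxides, with Prdx2 at -0.07 and Prdx5 at -0.06. Cat, catalase, averaged 441 ± 39.5 CPM in knockout and 409 ± 24.3 CPM in control libraries (log2 fold change 0.11, adjusted p = 0.909). Sod1, the cytosolic copper and zinc superoxide dismutase, had 53.9, 52.3 and 53.8 CPM in knockout libraries, against 60.4, 62.5 and 58.4 CPM in control libraries, which gave a 95% interval of -0.37 to 0.010 around a log2 fold change of -0.18 (adjusted p = 0.812). All knockout values were under all control values, and the spread within each group was small, but the difference did not pass. Leaving out 1 library at a time gave -0.20 to -0.15. An annotated copy of Sod1 outside the count table could share its reads, as could copies of Prdx1, Prdx2 and Txn1.

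**Figure D2:**
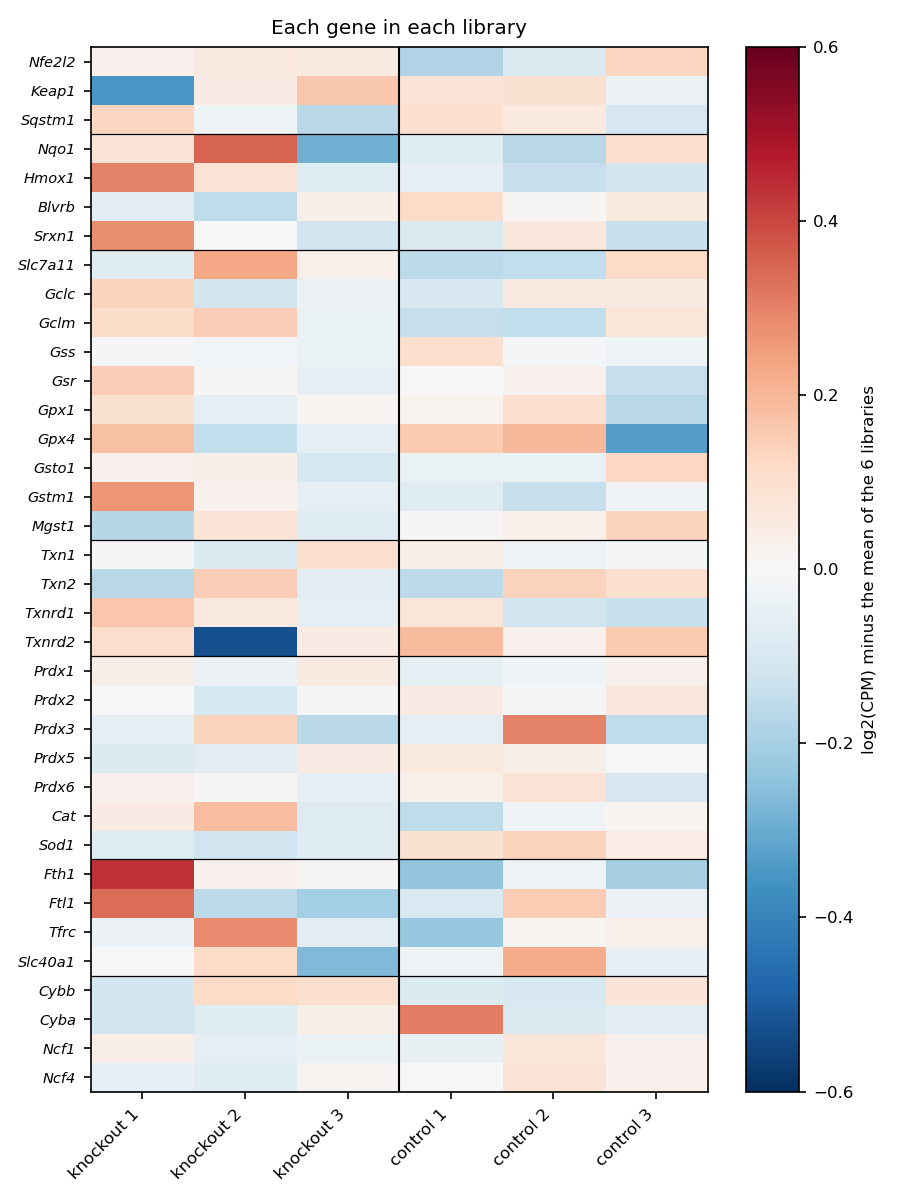
Log2 CPM of each gene (rows, ordered by role as in the text, with lines between roles) in each library (columns) minus its mean over the 6 libraries; red is above and blue below that mean. Fth1 and Ftl1 are both highest in knockout library 1, Txnrd2 is lowest in knockout library 2, and no block of rows separates the 3 knockout from the 3 control libraries.

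Ferritin dominated the group in abundance. Fth1 and Ftl1, the heavy and light chains of the ferritin shell, together made 57.9%, 50.1% and 50.2% of the summed CPM of the 36 genes in knockout libraries, against 49.0%, 52.7% and 49.6% in control libraries. The heavy chain carries the ferroxidase activity, and the light chain aids the growth of the iron core. Fth1 had 13144, 9925 and 9779 CPM in knockout libraries, against 8274, 9525 and 8471 CPM in control libraries, 10949 ± 1902 CPM in knockout and 8757 ± 673 CPM in control libraries (SD, n = 3 each). Every knockout library lay above every control library, by little for knockout libraries 2 and 3. The fold was 1.25, which is 0.32 ± 0.11 (SE) on the log2 scale with a 95% interval of 0.086 to 0.56. The difference did not pass (adjusted p = 0.581 in edgeR and 0.417 in DESeq2). Without knockout library 1 the log2 fold change was 0.17 (adjusted p = 0.805), and with each of the other five left out it lay between 0.28 and 0.40. Ftl1 had 8764, 6231 and 6041 CPM in knockout libraries, against 6535, 7739 and 6793 CPM in control libraries, with a 95% interval of -0.26 to 0.26 around a log2 fold change of -0.0020. Here knockout library 1 was the highest of all and the other two knockout libraries were the lowest.

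The chains moved together from library to library within a group, so that their ratio varied less than either level. On levels per kilobase of exon (RPKM, CPM divided by the deposited exon length in kilobases), the ratio of Fth1 to Ftl1 was 0.963, 1.02 and 1.04 in knockout libraries, against 0.813, 0.790 and 0.801 in control libraries, 1.01 ± 0.0401 in knockout and 0.801 ± 0.0114 in control libraries (SD, n = 3 each). The groups did not overlap. The two-sided exact permutation p was 0.1, the smallest that 3 against 3 allows, and 0.56 after Benjamini-Hochberg adjustment over the 7 partner ratios computed. Being a ratio within a library, it does not depend on the scaling between libraries, and the difference between group means, 0.207, lay between 0.191 and 0.230 with each library left out in turn. Ftl1 has near-identical annotated copies, among them Ftl1-ps1, over up to 930 bases, and Fth1 has a copy that matches over 274 bases, none of them in the count table. How the counting treated reads that fit more than 1 place was not given. A further 357 exonic bases of Ftl1 are also exonic in a gene model on the opposite strand.

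**Figure D3:**
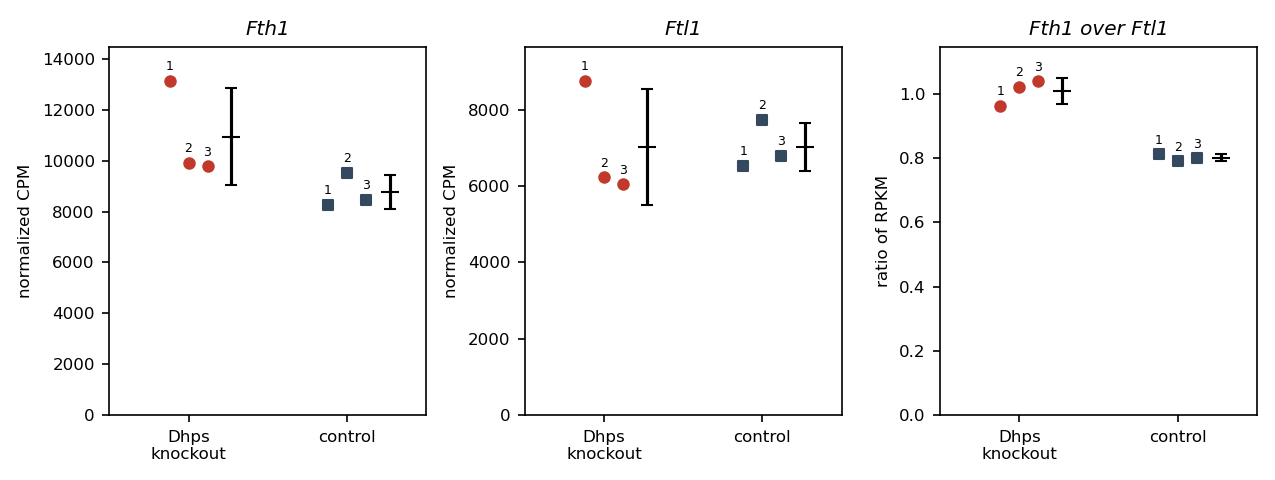
CPM of Fth1 and of Ftl1 and the ratio of their RPKM in each library (points, numbered by replicate; circles for Dhps knockout, squares for control), with the mean and SD of each group as a bar. Knockout library 1 is the highest in both chains, and the ratio lies between 0.963 and 1.04 in knockout and between 0.790 and 0.813 in control libraries.

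None of the other 6 partner ratios had an exact permutation p under 0.2. For the subunits of glutamate-cysteine ligase, the ratio of Gclc to Gclm was 0.167 ± 0.0175 in knockout and 0.185 ± 0.0147 in control libraries (exact permutation p = 0.4). For uptake against export of iron, the ratio of Tfrc to Slc40a1 was 20.7 ± 1.80 in knockout and 17.7 ± 2.08 in control libraries (exact permutation p = 0.2). For NRF2 against its repressor, the ratio of Nfe2l2 to Keap1 was 10.2 ± 1.84 in knockout and 8.94 ± 1.44 in control libraries (SD, n = 3 each, exact permutation p = 0.5).

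Tfrc and Slc40a1, which carry the iron-responsive elements printed above in the 3′ and 5′ untranslated regions, showed no difference that passed. Tfrc, the transferrin receptor for iron uptake, had 1236, 1544 and 1213 CPM in knockout libraries, against 1081, 1280.1 and 1295 CPM in control libraries (adjusted p = 0.908, log2 fold change 0.13 ± 0.11 SE). The highest value was that of knockout library 2, and without it the log2 fold change was 0.0063, while without control library 1 it was 0.048. Slc40a1, ferroportin, had 45.7, 49.5 and 38.1 CPM in knockout libraries, against 44.8, 53.4 and 44.3 CPM in control libraries (log2 fold change -0.10, adjusted p = 0.940). For both genes the groups overlapped. The iron regulatory proteins that bind these elements were measured too. Aco1, iron regulatory protein 1, averaged 59.6 ± 2.79 CPM in knockout and 66.1 ± 1.13 CPM in control libraries (log2 fold change -0.15, adjusted p = 0.861), and Ireb2, iron regulatory protein 2, averaged 68.0 ± 3.79 CPM in knockout and 71.9 ± 7.19 CPM in control libraries (log2 fold change -0.08, adjusted p = 0.947).

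The NADPH oxidase, which makes the superoxide that this programme disposes of, had 4 genes and none that passed. Cybb, the catalytic gp91phox subunit, had 1886, 2212 and 2179 CPM in knockout libraries, against 1925, 1905 and 2152 CPM in control libraries (log2 fold change 0.07, 95% interval -0.13 to 0.26). Cyba, its membrane partner p22phox, had 595, 611 and 658 CPM in knockout libraries, against 795, 605 and 614 CPM in control libraries (log2 fold change -0.11, 95% interval -0.33 to 0.11). The highest Cyba value was that of control library 1, and without it the log2 fold change was 0.03. The cytosolic subunits Ncf1 (p47phox) and Ncf4 (p40phox) had log2 fold changes of -0.04 and -0.07. Ncf1 averaged 242 ± 8.81 CPM in knockout and 248 ± 10.1 CPM in control libraries (SD, n = 3 each). Ncf4 had 105, 103 and 109.7 CPM in knockout libraries, against 109, 115 and 110.4 CPM in control libraries. Neutrophils also express these 4 genes. The summed neutrophil markers were higher in knockout libraries, as given above, though Mmp9, whose groups overlapped, made the largest part of that sum. The summed level of the 4 oxidase genes was 2838 to 3185 CPM in knockout and 2882 to 3126 CPM in control libraries. The part of neutrophils in the oxidase sum was not tested.

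Per kilobase of exon the 36 genes spanned a wide range and kept nearly the same order in both groups. Ftl1 and Fth1 stood at 7229 and 7246 RPKM in knockout and at 7239 and 5795 RPKM in control libraries, so that Fth1 ranked 1 in knockout and 2 in control libraries. Prdx1 came next at 2582 RPKM in knockout and 2516 RPKM in control libraries, followed by Gpx1 (1262 RPKM in knockout and 1237 RPKM in control), Cyba (818 RPKM in knockout and 884 RPKM in control) and Prdx5 (609.7 RPKM in knockout and 637 RPKM in control). At the low end were Gss (5.78 RPKM in knockout and 5.96 RPKM in control), Txnrd2 (2.79 RPKM in knockout and 3.26 RPKM in control) and Nqo1 (1.32 RPKM in knockout and 1.22 RPKM in control). Nqo1 lay above 15.5% of the genes of the table in control libraries, whereas Fth1 and Ftl1 lay above 99.9%.

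**Figure D4:**
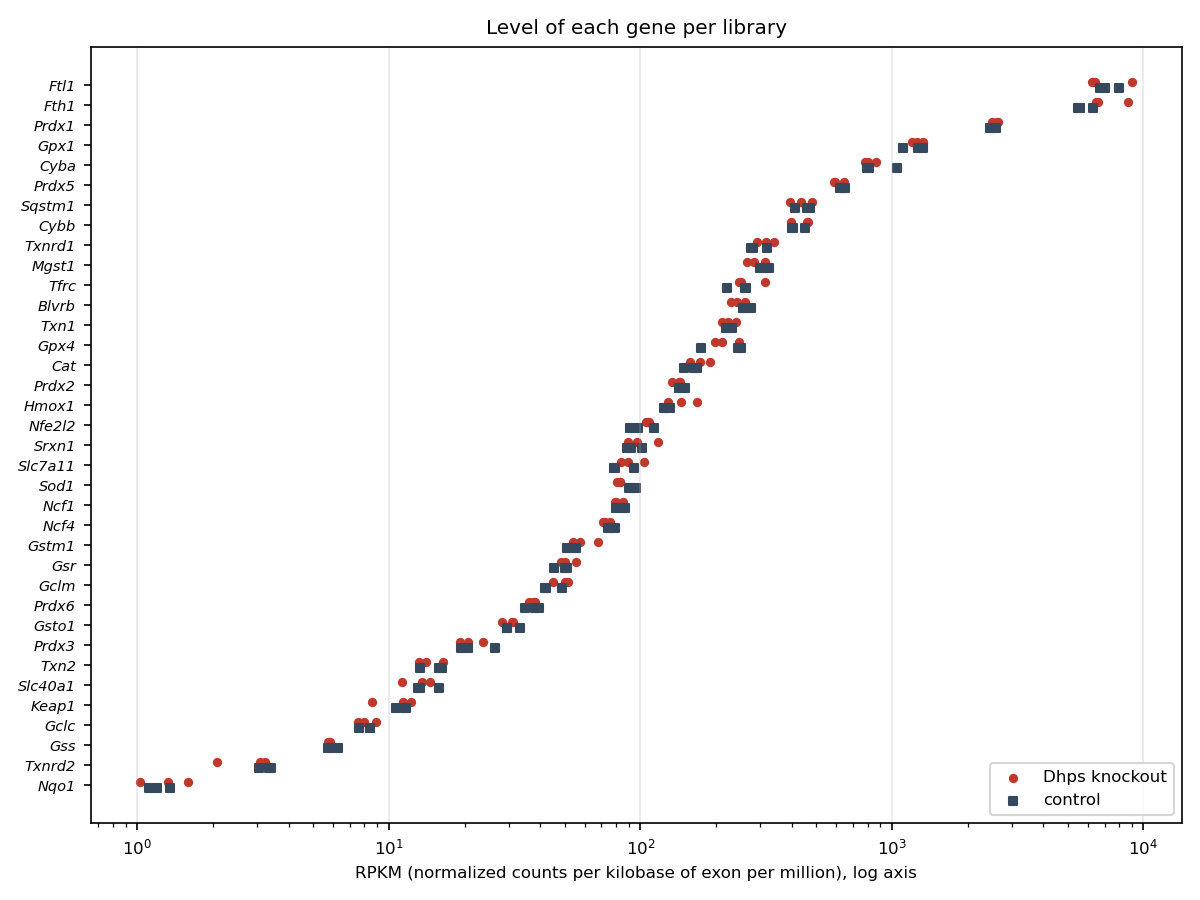
Level of each gene per kilobase of exon (RPKM, log axis) in each library, circles for Dhps knockout and squares for control, ordered by the mean of the 6 libraries. Ferritin genes, Prdx1 and Gpx1 are at the top and Nqo1 at the bottom, and the points of the groups lie close together for each gene compared with the range between genes.

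Further genes of the same pathways were read from 7 lists, of which 95 of 112 genes were in the table. In edgeR none passed, 5 of the 95 had an unadjusted p under 0.05, all on the higher side (3.84% of all genes, and 6.48% on either side), and DESeq2 called 1, Cd163. Of the 95 log2 fold changes 41 were positive and 54 negative, with a median of -0.02. Groups did not overlap for 8 of the 95 genes on the higher side (5.73% of all genes) and 7 on the lower side (5.45% of all genes).

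In the iron and haem list (26 of 30 in the table) Cd163, the scavenger receptor for haemoglobin bound to haptoglobin, had 2.75, 5.66 and 2.57 CPM in knockout libraries, against 1.14, 1.16 and 0.174 CPM in control libraries. The groups did not overlap, at levels close to the floor of the table, and the log2 fold change was 2.06 (adjusted p = 0.142 in edgeR and 0.0084 in DESeq2). Pcbp2, an iron chaperone, averaged 210.3 ± 8.22 CPM in knockout and 175 ± 15.7 CPM in control libraries (SD, n = 3 each, log2 fold change 0.26, adjusted p = 0.570), and Hmox2, the constitutive haem oxygenase, stood at -0.21 on that scale (adjusted p = 0.793). Among glutathione genes (22 of 28) the smallest p belonged to Gpx3, the secreted glutathione peroxidase (log2 fold change 0.24, adjusted p = 0.749), the mitochondrial glutaredoxin gene Glrx2 (0.40, adjusted p = 0.749) and Mgst3 (-0.22, adjusted p = 0.834). Among thioredoxin, peroxiredoxin and superoxide dismutase genes (11 of 14) they were Prdx4, the peroxiredoxin of the endoplasmic reticulum (-0.22, adjusted p = 0.793), Txnl4a (-0.17) and Txndc17 (-0.11).

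Among the partners and degraders of NRF2 (9 of 10) they were Gsk3b, a kinase that marks NRF2 for degradation apart from KEAP1 (log2 fold change 0.20, adjusted p = 0.749), the small MAF gene Mafg (-0.22, adjusted p = 0.840) and Rbx1, a subunit of the ligase that KEAP1 works with (-0.19, adjusted p = 0.861). Among further NRF2 targets and genes of NADPH supply (16 of 17) they were the carbonyl reductase gene Cbr1 (0.33, adjusted p = 0.835), Ephx1, an epoxide hydrolase (-0.18, adjusted p = 0.853), and Taldo1 of the pentose phosphate pathway (-0.16, adjusted p = 0.861). Among other oxidase genes (5 of 6) Rac1 had a log2 fold change of 0.14 and Rap1a of 0.16. Among genes of selenoprotein synthesis (6 of 7), on which Gpx1, Gpx4 and the thioredoxin reductases depend, Secisbp2 had -0.28 (adjusted p = 0.802), Sepsecs 0.13 and Sephs2 -0.07.

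**Figure D5:**
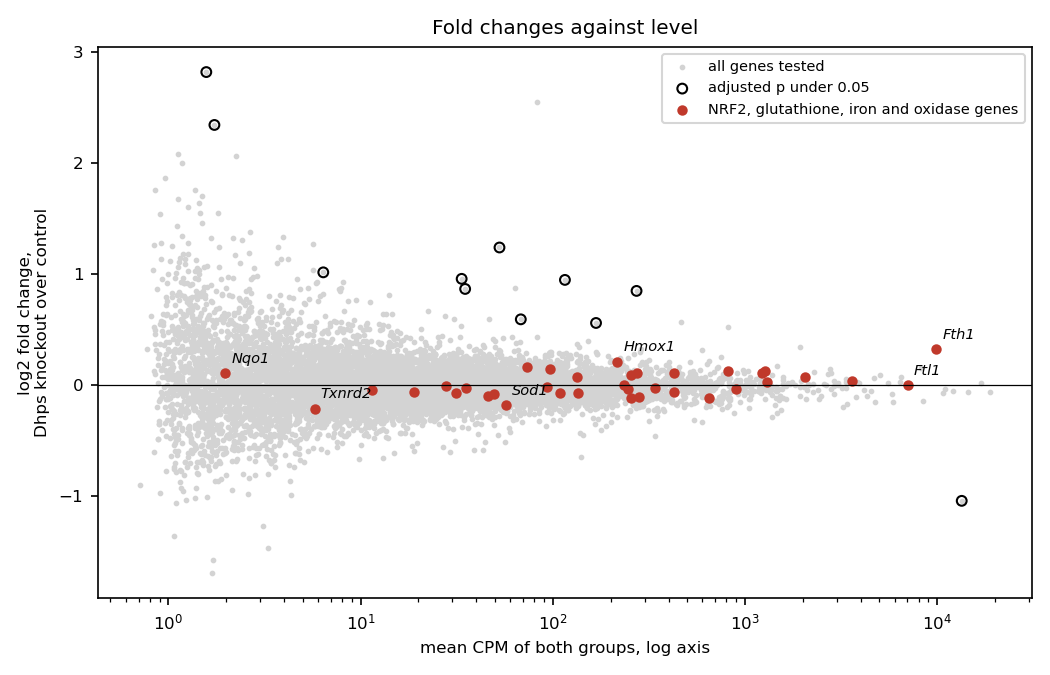
Log2 fold change (Dhps knockout over control) against the mean CPM of both groups (log axis) for all 10551 genes (grey), those with an adjusted p under 0.05 (open circles) and the 36 genes (red). The red points lie close to 0 across their range of levels, and none is among the open circles.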

How the data were processed

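RNA was measured in 3 Dhps knockout and 3 control libraries. Per the labels' protocols, the sequencer was an Ion Proton. The deposited table gives raw counts per gene, not normalized by the authors, with an exon length per gene (another kind of value, in bases). Build mm10, edgeR, featureCounts, STAR (2.4.2a) and Subread (1.5.0) appear in the submitters' processing notes. The sources used here give neither the annotation nor the strand setting nor the treatment of multi-mapping reads. In each of the 10551 genes at least 3 libraries exceeded 1 CPM, so the table looks filtered. The per-sample columns left unused number 0.

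Counts were fitted with edgeR 4.0.16 in R 4.3.3 (TMM, filterByExpr with a minimum count of 10, which removed 0 genes, quasi-likelihood test with genotype as the only term, two-sided, Benjamini-Hochberg over all genes). SE is the log2 fold change divided by the square root of F, and the common biological coefficient of variation was 10.7%. Tested on simulated data for this comparison over 10551 genes, the fit recovered 31 of 67 genes with a 1.5-fold change, 59 of 67 with a 2-fold change and all 66 with a 3-fold change. Alternatives were DESeq2 1.42.0, other size factors, other filters, a replicate block, Lyz2 left out and each library left out. Copies were searched with blastn 2.17.0 (at least 95% identity over 100 bases). The genes and lists were chosen with earlier results of these data known. The text names all 36 genes, Dhps, Lyz2 and the 3 genes of smallest p per pathway list, apart from 1 that is not reported here. Of the marker lists, the macrophage, neutrophil, stromal and erythroid ones are given as sums and the others by their calls and unadjusted p. Those counts at unadjusted p, Aco1, Ireb2, Adgre1, Csf1r, Fn1 and the ferritin ratio's left-out values were chosen after their values were seen. So were Mmp9 and the stromal, mast cell and platelet markers named for their low control levels.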

Additional observations from a re-analysis of the deposited data

How the results depend on the processing

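In the 12 alternatives the 36 genes gave 432 values, of which 402 kept their sign and 0 passed the threshold, with a lowest adjusted p of 0.377. Of the 12, the fit without a filter repeated the main fit, because the filter had removed 0 genes. The number of genes called over the table was 11, and 22 with DESeq2, 35 with a replicate block, 7 with Lyz2 left out of the counts, and 4 to 19 with 1 library left out (19 when control library 1 was omitted, 4 when it was control library 2 and 7 when it was control library 3). The cause was not tested. The labels do not say whether same-numbered libraries are paired, and the correlations do not settle it. Deviations of same-numbered libraries from their group means correlated at 0.175, 0.0208 and 0.167, and those of other pairs at -0.234 to 0.101. Knockout libraries 1 and 3 correlated best with the control library of their own number, and knockout library 2 with control library 3 (0.101). With the replicate block Dhps (adjusted p = 0.033) and Cd163 (adjusted p = 0.010) passed.

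The median log2 fold change of the 36 genes ranged from -0.025 to 0.036 with 1 library left out. All 30 sign changes among the 36 genes came with 1 library left out and concern 15 genes with a log2 fold change of at most 0.11 in size. Their log2 fold changes with 1 library left out ranged over Cyba -0.18 to 0.028, Ftl1 -0.19 to 0.10, Gclc -0.071 to 0.045, Gpx1 -0.044 to 0.091, Gpx4 -0.18 to 0.069, Gsto1 -0.057 to 0.026, Keap1 -0.18 to 0.066, Nqo1 -0.048 to 0.27, Prdx3 -0.16 to 0.082, Prdx6 -0.063 to 0.034, Slc40a1 -0.18 to 0.0046, Sqstm1 -0.11 to 0.037, Srxn1 -0.0082 to 0.20, Txn1 -0.044 to 0.043 and Txn2 -0.15 to 0.011. Others kept their sign but moved by over 1.5 times, among them Slc7a11 (0.040 to 0.22), Tfrc (0.0063 to 0.19), Cat (0.039 to 0.17), Gstm1 (0.065 to 0.23) and Txnrd2 (-0.32 to -0.048). Among pathway genes, Sephs2 ranged from -0.19 to 0.0012. Nqo1 and Txnrd2 had the fewest counts of the 36 genes, 24 to 32 and 51 to 96 per library, and the widest intervals.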
